A study of Mus musculus with 4 samples.

Results

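Glycolysis and the pentose phosphate pathway were examined here through 35 of the 19044 gene symbols in the count table. The genes were taken by symbol and cover 5 steps. Glucose and lactate transport has 4 genes, upper glycolysis (glucose to triose phosphate) has 11, lower glycolysis (triose phosphate to lactate) has 8, pyruvate entry into the mitochondrion has 4 and the pentose phosphate pathway has 8. All 35 passed the filter on low counts, an average of 5 or more CPM (read counts relative to the scaled total of their library).

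Regulatory T cells (Treg cells) are CD4 T cells that depend on the transcription factor Foxp3 and hold immune responses in check. They came from spleen and peripheral lymph nodes of untreated mice in 4 libraries, 1 per group: WT rTreg, WT aTreg, knockout rTreg and knockout aTreg. WT mice were Foxp3-YFP-Cre, and knockout mice were Ripk1fl/fl Foxp3-YFP-Cre, so all 4 groups share the Cre transgene driven by Foxp3 and the knockout groups carry loxP-flanked Ripk1 in addition. RIPK1 is a kinase that sits between tumour necrosis factor receptors and the choice of survival or death. The prefixes r and a are left unexplained by the labels (resting and activated are the usual readings). Not given in the sources used here are the sort gate, the age, sex and number of the mice, and whether 1 set of mice supplied both states.

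Glycolysis splits glucose into pyruvate in the cytosol, yielding ATP, and lactate dehydrogenase turns pyruvate into lactate that leaves through monocarboxylate transporters. The pentose phosphate pathway branches off at glucose 6-phosphate: its oxidative arm makes NADPH and its non-oxidative arm makes ribose phosphate for nucleotides. In T cells, activation and division are known to go with more glucose uptake and glycolysis, and Treg cells are known to rely more on oxidation of pyruvate and lipids than other dividing T cells do.

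The libraries held 17588754 to 20868319 counts, so a count of 0 would allow a level of up to 0.144 to 0.171 CPM. Ripk1 itself stood at 83.6 and 77.5 CPM in the rTreg and aTreg libraries of WT and at 84.7 and 80.8 CPM in those of the knockout, with no call for genotype (log2 difference 0.04, SE 0.07, adjusted p = 0.66, edgeR). The flanked exons are not known here, and gene counts include reads from the remaining exons. Since these counts show no sign of a deletion, the term KO-labelled is used below. Xist was at 299 and 338 CPM in the WT libraries and 0.284 and 0.213 CPM in the KO-labelled ones, while Ddx3y, a Y-linked gene, was at 97.5 to 126 CPM in all 4. The sex makeup of the mice therefore cannot be told apart from genotype. Foxp3 was at 619 to 694 CPM in every library, and the summed CPM of 9 Treg and CD4 T cell markers was 3727 to 4189. In bulk RNA, fewer cells of a type and less RNA per cell cannot be told apart.

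Promoters of 5 of these genes are shown. They are 4 of the genes called higher whose window holds the motif searched and no annotated exon, and Eno3, which was called lower. Slc16a1 meets the same rule as the 4 and is not shown. Each run is the 250 bases before the first RefSeq start on GRCm38.p6, written 5′ to 3′ on the strand of the gene. Capitals mark ACGTG on either strand (read as CACGT on the other), the core of the hypoxia response element, and CACGTG, the E-box, which holds ACGTG on both strands and so counts as 2 overlapping matches. Hk2 (hexokinase 2) is on the minus strand at chr6:82774455-82774704. Pgam1 (phosphoglycerate mutase 1) is on the plus strand at chr19:41911621-41911870, Pgk1 (phosphoglycerate kinase 1) on the plus strand at chrX:106186850-106187099, Ldha (lactate dehydrogenase A) on the plus strand at chr7:46845554-46845803 and Eno3 (the muscle-type enolase) on the plus strand at chr11:70656926-70657175.
Hk2: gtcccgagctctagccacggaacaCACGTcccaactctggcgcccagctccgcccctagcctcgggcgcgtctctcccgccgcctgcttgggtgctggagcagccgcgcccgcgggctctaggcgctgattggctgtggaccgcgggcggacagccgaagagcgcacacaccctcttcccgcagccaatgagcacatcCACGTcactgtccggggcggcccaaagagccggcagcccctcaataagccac
Pgam1: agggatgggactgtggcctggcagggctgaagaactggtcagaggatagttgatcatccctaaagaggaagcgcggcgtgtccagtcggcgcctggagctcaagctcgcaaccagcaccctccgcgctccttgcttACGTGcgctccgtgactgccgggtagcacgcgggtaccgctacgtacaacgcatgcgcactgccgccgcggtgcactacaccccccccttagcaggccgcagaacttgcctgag
Pgk1: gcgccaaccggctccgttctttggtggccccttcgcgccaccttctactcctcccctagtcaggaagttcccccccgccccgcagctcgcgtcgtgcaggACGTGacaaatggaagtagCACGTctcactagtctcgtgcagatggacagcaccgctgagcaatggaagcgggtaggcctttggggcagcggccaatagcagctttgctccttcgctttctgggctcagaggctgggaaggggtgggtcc
Ldha: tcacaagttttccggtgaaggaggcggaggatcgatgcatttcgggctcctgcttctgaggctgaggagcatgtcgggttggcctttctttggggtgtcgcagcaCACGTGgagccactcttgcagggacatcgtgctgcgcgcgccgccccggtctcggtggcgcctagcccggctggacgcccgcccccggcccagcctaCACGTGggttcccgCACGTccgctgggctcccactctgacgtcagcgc
Eno3: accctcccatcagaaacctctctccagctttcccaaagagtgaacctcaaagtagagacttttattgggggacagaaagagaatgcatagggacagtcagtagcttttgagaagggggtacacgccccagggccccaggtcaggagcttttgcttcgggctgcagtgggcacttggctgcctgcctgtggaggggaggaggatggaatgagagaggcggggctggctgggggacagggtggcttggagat

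The Ldha run holds 5 matches, of which 4 belong to 2 E-boxes. Hk2 and Pgk1 have 2 each and Pgam1 has 1. The Eno3 run holds neither motif, which says only that these letters are not in that window. Among the 34 genes with a RefSeq promoter (Slc2a3 was not matched), 9 (26.5%) hold ACGTG and 3 (8.82%) hold CACGTG. Among 12986 promoters of genes in the count table the shares are 20.3% and 7.65%, so the genes lie close to that background. The windows of Tpi1, Eno1 and Aldoa, called higher, held no match, while those of Pfkm and Pfkfb3, not called for genotype, did. These shares and windows use the first listed start of each gene only. Windows at later listed starts of Aldoa held ACGTG, and some at later starts of Pfkm held none, so such a contrast depends on the start used.

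Most of the genes were called higher in the KO-labelled libraries, and the 3 called lower (Eno3, Rpia and Pdk1) lay in 3 different steps. Of the 35 genes, 21 (60%) were called higher for genotype, against 24.4% of the 9680 genes tested, and 3 (8.57%) were called lower, against 22.8%. The calls come from edgeR's quasi-likelihood test with genotype and state as additive terms over the 4 libraries, at a Benjamini-Hochberg adjusted p of 0.05. That fit has 1 residual degree of freedom, so the spread is taken largely from the other genes, and each group is 1 library. With genotype alone in the fit and the states as replicates of each other, 12 genes were higher and Eno3 was the 1 lower, and the calls of Slc2a1, Slc2a3, Hk1, Hk2, Pfkp, Aldoa, Pgls, Pgd, Taldo1, Pdk1 and Rpia were lost. DESeq2 with both terms ended those of Taldo1, Pdk1 and Rpia. The 21 log2 changes ran from 0.27 for Taldo1 to 1.44 for Tpi1, which are 1.21-fold and 2.71-fold. The median log2 ratio of the 35 genes, KO-labelled over WT, was 0.33 in rTreg and 0.40 in aTreg, against 0.01 and 0.00 over all tested genes.

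The same genes summed to 4633 CPM for WT rTreg, 4851 for WT aTreg, 6596 in KO-labelled rTreg and 7405 in KO-labelled aTreg. That was 1.42-fold more in KO-labelled rTreg than in WT rTreg and 1.53-fold more in aTreg. In 22 of the 35 genes both KO-labelled libraries lay above both WT libraries, against 33.2% of tested genes, and in 6 they lay below, against 31.9%. All 24 cell-cycle genes on a marker list, among them Mki67 and Top2a, were also called higher for genotype, against 24.4% of tested genes. Their summed CPM was 1582, 1195, 3654 and 3434 for WT rTreg, WT aTreg, rTreg labelled KO and aTreg labelled KO, the order used below. Their part in the difference of the glycolysis genes was not tested.

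**Figure D1:**
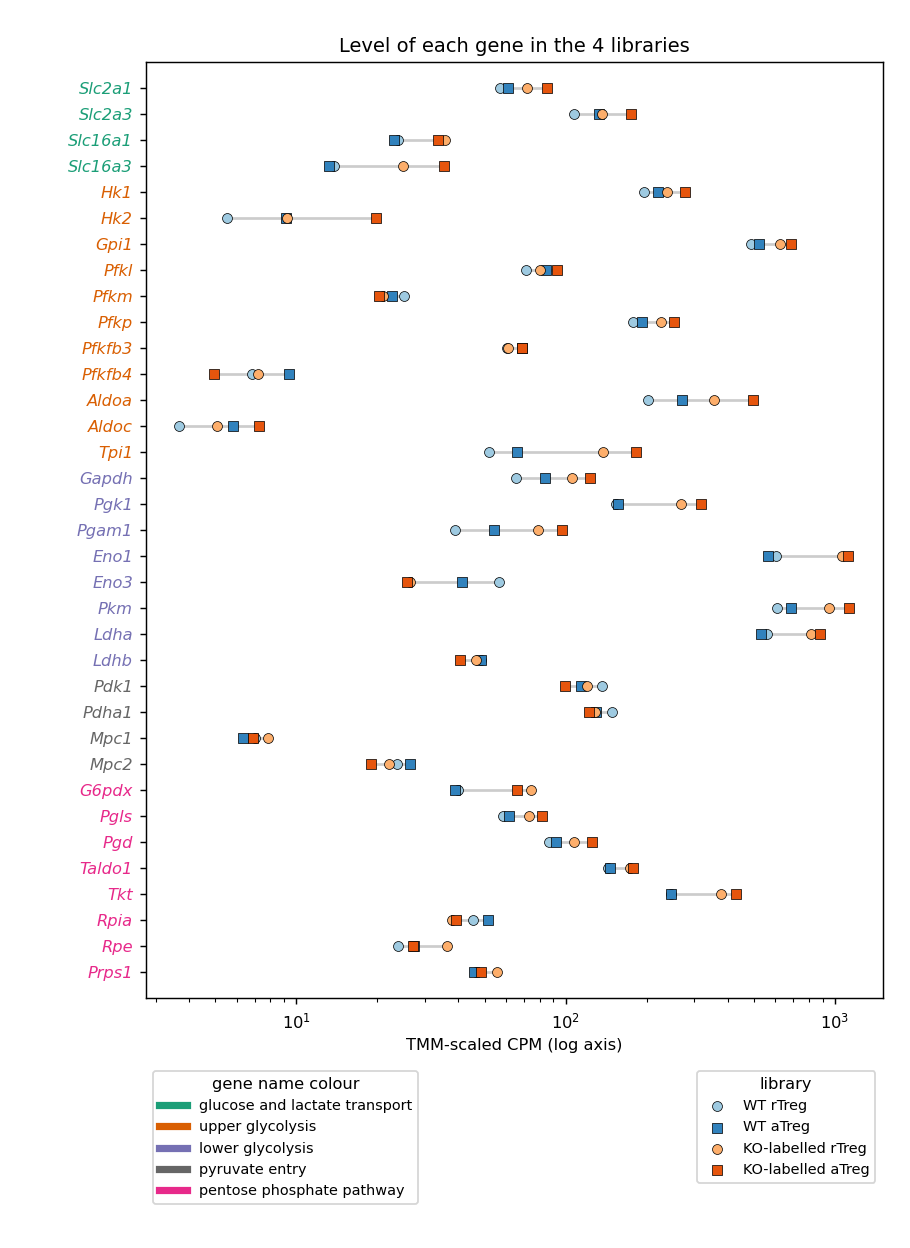
TMM-scaled CPM of the 35 genes on a log axis, 1 point per library (circles rTreg, squares aTreg, blue WT, orange KO-labelled), with gene names coloured by step. Tpi1, Slc16a3, Pgk1, Aldoa and Pgam1 show both orange points to the right of both blue ones, and Eno3 shows the reverse order.

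Among the transporters, all 4 were called higher, against 24.4% of all tested genes. Each step holds few genes, so its share is rough, here and below. For Slc16a3 (MCT4, a lactate exporter) WT rTreg had 13.8 CPM, WT aTreg 13.2, and the KO-labelled rTreg and aTreg libraries 24.9 and 35.3. The WT libraries were close to each other and both KO-labelled libraries lay above them. It rose 2.21-fold with genotype (log2 1.14, SE 0.15, adjusted p = 3.9e-05, edgeR). Slc16a1 (MCT1, which moves lactate in both directions) was at 23.8, 23.1, 35.8 and 33.7 CPM in the same order, a log2 change of 0.57 (adjusted p = 0.00071, edgeR). The glucose transporters changed less. Slc2a1 (GLUT1) was at 57.2, 61.3, 72.1 and 85.0 CPM and changed by log2 0.40 (adjusted p = 0.00055, edgeR), and Slc2a3 (GLUT3) was at 107, 133, 136 and 175 CPM and changed by log2 0.37 (adjusted p = 0.00046, edgeR).

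In upper glycolysis 6 of 11 genes (54.5%) rose with genotype and none fell, against 24.4% and 22.8% of all tested genes. Tpi1 (triosephosphate isomerase, which interconverts the triose phosphates made by aldolase) measured 51.8 CPM for WT rTreg, 66.0 for WT aTreg, 138 for KO-labelled rTreg and 183 for KO-labelled aTreg. Each KO-labelled library was more than 2 times either WT library, and the log2 change was 1.44 (SE 0.07, adjusted p = 2.1e-08, edgeR). Aldoa (aldolase A, which splits fructose bisphosphate) was at 203, 271, 357 and 496 CPM in the same order. It rose 1.8-fold (log2 0.84, SE 0.07, adjusted p = 9.2e-07, edgeR), again with no overlap between genotypes.

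Hk2 (an inducible hexokinase, the enzyme that traps glucose as glucose 6-phosphate) was the gene at the lowest level among these in WT rTreg per length. WT rTreg had 5.53 CPM, WT aTreg 9.13, and the KO-labelled rTreg and aTreg libraries 9.20 and 19.8. WT aTreg and KO-labelled rTreg thus stood at nearly the same level, and KO-labelled aTreg was the highest. The log2 change with genotype was 0.94 (SE 0.18, adjusted p = 0.00084, edgeR). The other 3 called genes were Hk1 (the constitutive hexokinase, log2 0.32), Gpi1 (glucose phosphate isomerase, 0.38) and Pfkp (a phosphofructokinase isozyme, 0.36). Pfkl, Pfkm, Pfkfb3, Pfkfb4 and Aldoc were not called for genotype. Among these, Pfkm (the muscle-type phosphofructokinase) was at 25.2, 22.6, 20.9 and 20.3 CPM, with both KO-labelled libraries below both WT ones. Pfkfb3 and Pfkfb4 make the allosteric activator of phosphofructokinase, and Pfkfb3 was at 60.7, 68.9, 61.0 and 68.6 CPM, a log2 difference of 0.00 (SE 0.07).

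Lower glycolysis held the most reads and 6 of its 8 genes (75%) rose, against 24.4% of all tested genes. Its summed CPM was 2137 and 2166 in the WT libraries and 3349 and 3726 in the KO-labelled ones, ratios of 1.57 in rTreg and 1.72 in aTreg. Pgk1, which makes ATP from bisphosphoglycerate, was at 154, 157, 268 and 318 CPM in the order above, a log2 change of 0.91 (SE 0.07, adjusted p = 9.2e-07, edgeR). Pgam1, which follows it in the pathway, was at 39.0, 54.1, 78.7 and 96.6 CPM, a log2 change of 0.92 (SE 0.08, adjusted p = 1.1e-06, edgeR). For both the lower of the KO-labelled libraries lay above the higher of the WT libraries. Eno1 (the ubiquitous enolase) was at 602, 563, 1060 and 1116 CPM, a log2 change of 0.90 (SE 0.07, adjusted p = 9.2e-07, edgeR). Pkm (pyruvate kinase), Gapdh (glyceraldehyde phosphate dehydrogenase) and Ldha changed by log2 0.67, 0.63 and 0.63, with adjusted p from edgeR of 6.5e-06, 1.1e-05 and 1.8e-05. Ldhb, the lactate dehydrogenase subunit of oxidative tissues, was not called (log2 difference −0.17, adjusted p = 0.15, edgeR).

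Eno3 was the member that moved most in the other direction. WT rTreg had 56.7 CPM, WT aTreg 41.2, and the KO-labelled rTreg and aTreg libraries 26.5 and 25.8, so that both KO-labelled libraries were well below both WT ones. It fell by 0.89 on the log2 scale (SE 0.11, adjusted p = 3.7e-05, edgeR). The log2 ratio of the KO-labelled to the WT library was −1.09 in rTreg (95% counting interval −1.25 to −0.94) and −0.67 in aTreg (−0.84 to −0.51).

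**Figure D2:**
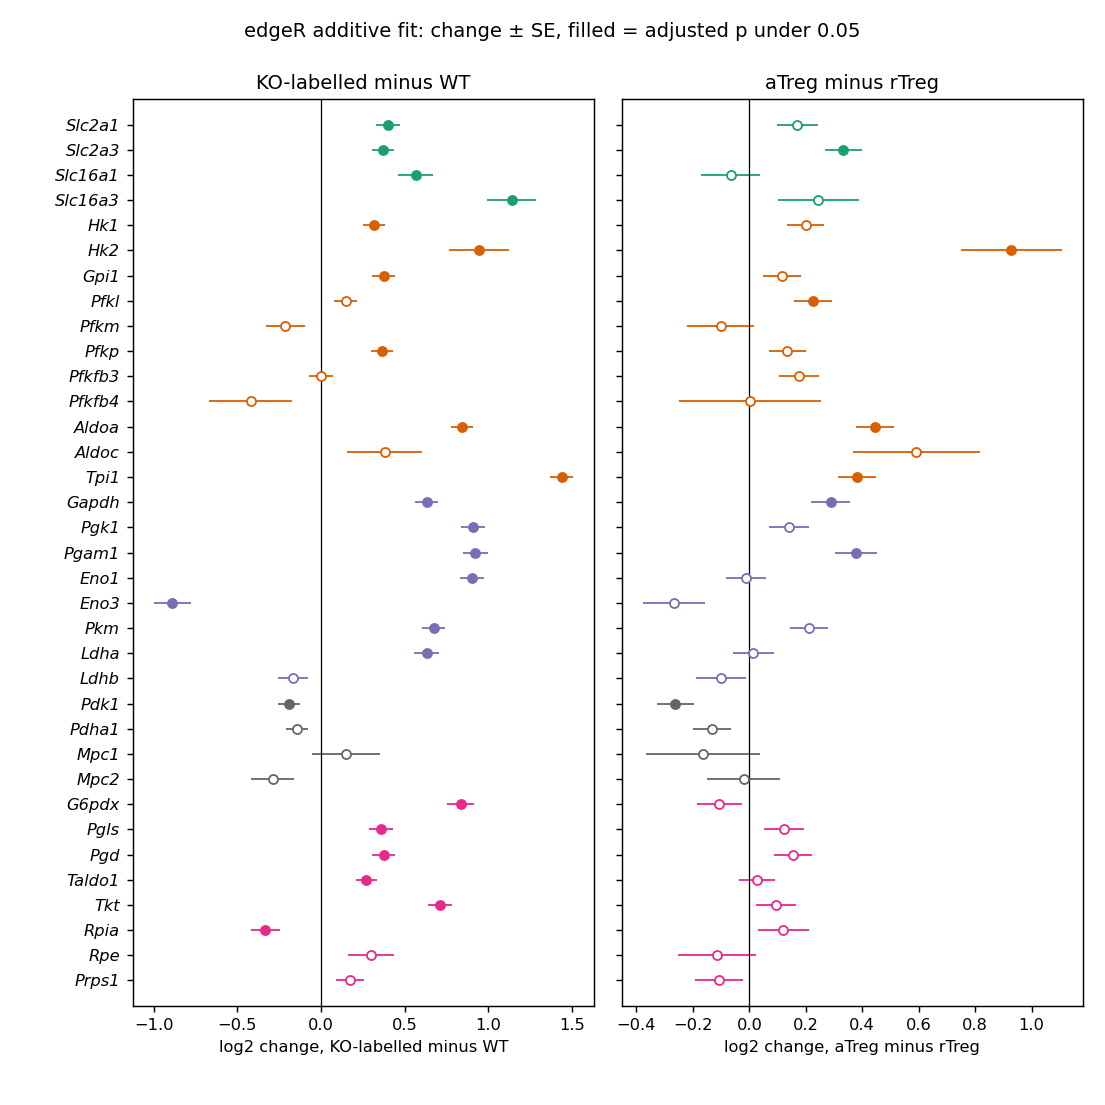
Fitted log2 change for genotype (KO-labelled against WT) and for state (aTreg against rTreg) of each gene, with called genes marked. Error bars are 1 SE, derived from the test statistic of the additive edgeR fit. For genotype the called genes lie between −0.89 (Eno3) and 1.44 (Tpi1).

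In pyruvate entry none of the 4 genes was called higher and 1 (25%) was called lower, beside 24.4% and 22.8% of all tested genes. As with the transporters, 4 genes give only a rough share. Its 4 genes summed to 315 and 277 CPM in the WT libraries and 278 and 248 CPM in the KO-labelled ones. Pdk1, a kinase that switches off pyruvate dehydrogenase, was at 136, 114, 120 and 99.5 CPM in the order above. Here the WT aTreg value lay between the KO-labelled values, so the genotypes overlapped. Within each state the KO-labelled library was the lower, and the fit called Pdk1 lower for genotype (log2 −0.19, SE 0.06, adjusted p = 0.029, edgeR). That call was also lost without a filter on low counts. Pdha1 (the catalytic subunit of pyruvate dehydrogenase), Mpc1 and Mpc2 (the mitochondrial pyruvate carrier) were not called, with log2 differences of −0.15, 0.15 and −0.29.

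In the pentose phosphate pathway 5 of 8 genes (62.5%) rose and 1 (12.5%) fell, against 24.4% and 22.8% of all tested genes. G6pdx (glucose 6-phosphate dehydrogenase, which commits glucose to the oxidative arm) measured 39.8 CPM for WT rTreg, 38.7 for WT aTreg, 74.1 for KO-labelled rTreg and 66.1 for KO-labelled aTreg. The WT libraries were close together and the KO-labelled ones stood 1.79-fold higher in the fit (log2 0.84, SE 0.08, adjusted p = 3.9e-06, edgeR). Pgls and Pgd, the next enzymes of that arm, changed by log2 0.36 and 0.38. In the non-oxidative arm, Tkt (transketolase) was at 245, 246, 378 and 429 CPM, a log2 change of 0.71 (SE 0.07, adjusted p = 5.9e-06, edgeR), and Taldo1 (transaldolase) changed by log2 0.27. Rpia (ribose phosphate isomerase) was at 45.5, 51.7, 37.9 and 39.2 CPM, below WT in both states, and fell by 0.33 on the log2 scale (SE 0.09, adjusted p = 0.0085, edgeR). Rpe (ribulose phosphate epimerase) and Prps1 (which makes phosphoribosyl pyrophosphate for nucleotides) were not called.

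The ratios of single libraries gave the size of the difference within each state, with no replicate and no test. In rTreg 13 genes were at least 1.5-fold higher in the KO-labelled library (8.74% of tested genes were) and 1 was at least 1.5-fold lower (5.92%). In aTreg 11 were higher (9.77%) and 2 were lower (7.98%), Eno3 and Pfkfb4. At least 2-fold higher were Tpi1 and Pgam1 in rTreg (3.41%), and Tpi1, Slc16a3, Hk2 and Pgk1 in aTreg (3.95%). Eno3 was at least 2-fold lower in rTreg (1.34%), and no gene was in aTreg (2.17%). In both states, 10 genes were higher (6.56%) and Eno3 alone was lower (4.24%). In the authors' deposited table, which compares the genotypes with 2 libraries each, 14 of the 35 genes were higher in KO at an adjusted p under 0.05 and Eno3 was lower, against 9.61% and 7% of genes with an adjusted p.

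State moved fewer of these genes. Of the 35, 7 (20%) were called higher in aTreg than in rTreg, against 7.91% of tested genes, and 1 (2.86%) was called lower, against 5.44%. The 7 were Hk2, Aldoa, Tpi1, Pgam1, Slc2a3, Gapdh and Pfkl. None of the 8 pentose phosphate genes was called, too few to set against the shares of tested genes. In DESeq2 with the same terms Aldoa alone kept its call, and with the genotypes as replicates of each other none did. Hk2 changed most: aTreg was 9.13 CPM against 5.53 in WT and 19.8 against 9.20 in KO-labelled libraries, a log2 change of 0.93 (SE 0.18, adjusted p = 0.0041, edgeR). Aldoa changed by log2 0.45 (SE 0.07, adjusted p = 0.00077, edgeR), Tpi1 by 0.38, Pgam1 by 0.38, Slc2a3 by 0.33, Gapdh by 0.29 and Pfkl (the liver-type phosphofructokinase) by 0.22, a call that RLE or upper-quartile scaling also ended. In each of these genes the aTreg library was the higher within both genotypes. Pdk1 fell by 0.26 on the log2 scale (SE 0.06, adjusted p = 0.017, edgeR), and was lower in aTreg within both genotypes.

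The summed level of the 35 genes was 1.05-fold higher in aTreg within WT and 1.12-fold within KO-labelled libraries. At least 1.5-fold higher in aTreg were 2 genes in WT (Hk2 and Aldoc; 4.49% of tested genes) and 1 in KO-labelled libraries (Hk2; 3.06%), where Hk2 was also past 2-fold (0.95%), and none was that much lower in either (3% and 1.48%). Of 12 handling and stress genes tested (Fos, Jun, heat shock genes and others), 7 (58.3%) were called higher in aTreg, against 7.91% of tested genes. For genotype 8 (66.7%) were called lower, against 22.8%. The genes of the whole list summed to 6819, 10322, 6311 and 6863 CPM. Their part in the state difference was not tested.

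**Figure D3:**
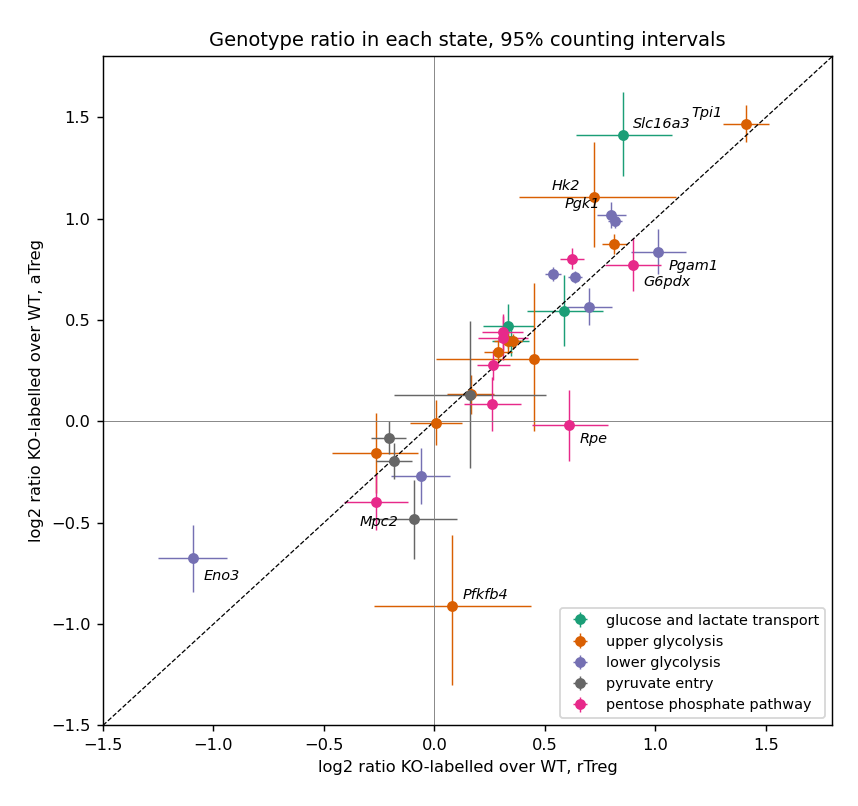
Log2 ratio of KO-labelled to WT libraries in aTreg (vertical axis) against the same ratio in rTreg (horizontal axis), 1 point per gene, with 95% counting intervals. Most genes lie near the diagonal, Slc16a3 lies above it, and Pfkfb4 and Rpe lie below it.

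The genotype ratio was larger in aTreg in 20 of 35, against 50.1% of tested genes, with a median difference of 0.05 on the log2 scale. The difference could not be tested, since a fit with the interaction leaves no residual degree of freedom, so counting intervals are given. For 14 genes (40%) this interval lay off 0, close to the 33.7% of tested genes where it did. Slc16a3 had the largest positive difference: its log2 ratio was 0.85 in rTreg and 1.41 in aTreg, a difference of 0.56 (0.26 to 0.85). Eno3 had the next, 0.42 (0.19 to 0.64), since its ratio was less negative in aTreg. Pgk1 differed by 0.22 (0.13 to 0.31). In 4 genes, Pfkfb4, Rpe, Ldha and Eno1, the ratio of aTreg to rTreg had opposite signs in the genotypes with both intervals off 0, against 3.27% of tested genes.

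Pfkfb4 and Rpe had the largest negative differences. For Pfkfb4, WT rTreg had 6.81 CPM, WT aTreg 9.42, and the KO-labelled rTreg and aTreg libraries 7.21 and 4.96, so the WT aTreg library was the highest and the KO-labelled aTreg library the lowest. Its log2 ratio was 0.08 in rTreg (−0.27 to 0.44) and −0.91 in aTreg (−1.30 to −0.56), a difference of −0.99 (−1.49 to −0.50). Rpe was at 23.8, 27.4, 36.3 and 27.0 CPM, with KO-labelled rTreg alone standing above the others. Its log2 ratio was 0.61 in rTreg (0.44 to 0.78) and −0.02 in aTreg (−0.20 to 0.16), a difference of −0.63 (−0.87 to −0.39). Of the exon bases of Rpe, 17.9% overlap Kansl1l, and without a stated strand setting the reads of that stretch cannot be assigned to either.

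Several steps are served by more than 1 isozyme, and their shares of the step's reads differed between libraries. Eno3 held 8.6% of the reads of Eno1 and Eno3 in WT rTreg, 6.83% in WT aTreg, 2.44% in KO-labelled rTreg and 2.26% in KO-labelled aTreg. Ldhb held 7.98%, 8.40%, 5.41% and 4.40% of the reads of Ldha and Ldhb in that order. Pfkm held 9.16%, 7.57%, 6.42% and 5.56% of the phosphofructokinase reads. In all 3 the KO-labelled shares lay below both WT shares. Pfkp was the major phosphofructokinase in every library, with 64.9%, 64.2%, 69.0% and 69.1%, and Pfkl held 26.0%, 28.3%, 24.6% and 25.3%.

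Other shares had no common direction. Hk2 held 2.76%, 3.99%, 3.72% and 6.63% of the reads of Hk1 and Hk2, so Hk1 carried nearly all hexokinase reads in every library. Slc16a3 held 36.7%, 36.4%, 41.1% and 51.2% of the reads of both lactate transporters. Slc2a3 held 65.2%, 68.4%, 65.4% and 67.3% of the reads of both glucose transporters, which separates the states by more than the genotypes. Pfkfb4 held 10.1%, 12%, 10.6% and 6.74% of the reads of Pfkfb3 and Pfkfb4, lowest in KO-labelled aTreg. Aldoc (the brain-type aldolase) held 1.78%, 2.11%, 1.40% and 1.44% of the reads of Aldoa and Aldoc, lower in both KO-labelled libraries. Mpc1 held 22.9%, 19.2%, 26.1% and 26.7% of the reads of the carrier genes. These are shares of reads, not corrected for transcript length.

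**Figure D4:**
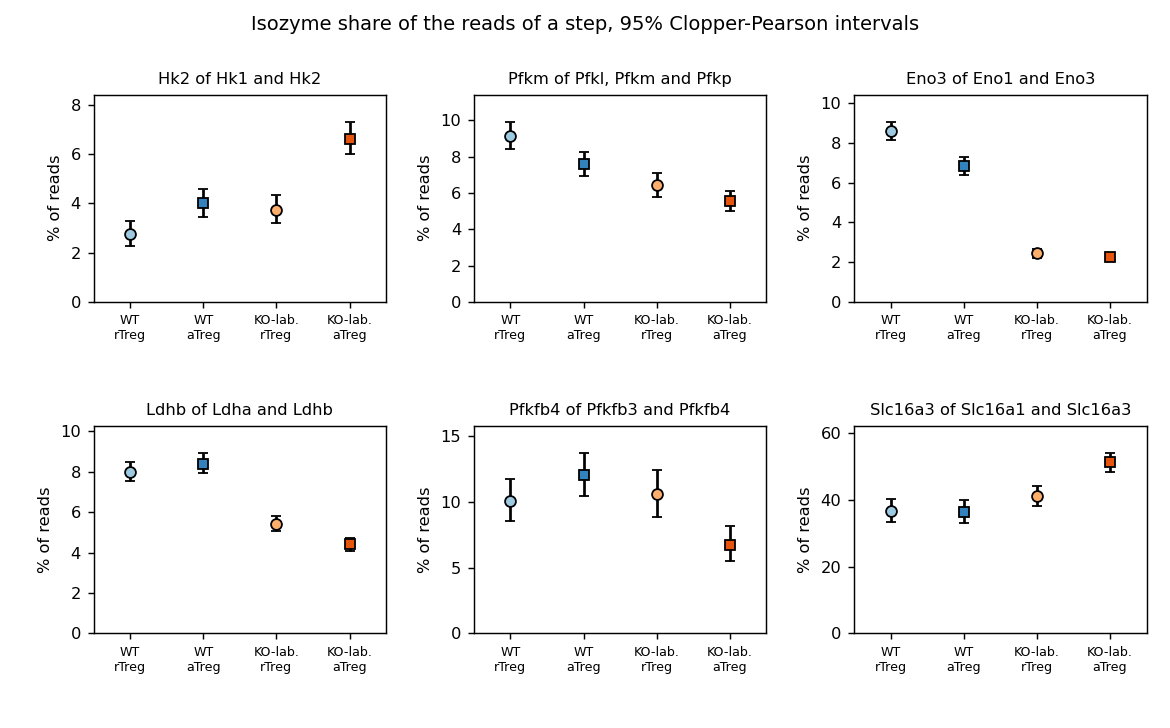
Share of a step's reads held by 1 isozyme in each library, in percent, with exact binomial 95% intervals that cover counting error only. The Eno3, Ldhb and Pfkm shares are lower in both KO-labelled libraries than in both WT libraries.

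Levels were also set on a scale of CPM per kilobase of exon. The length used merges all annotated exons of a gene, so the order of genes also depends on annotation. For Mpc2 it was 7344 bases, against 1025 for its longest coding transcript. In WT rTreg, Ldha stood highest at 169 CPM per kilobase, followed by Pkm at 122, Eno1 at 112, Gpi1 at 75.6 and Pgk1 at 68.5. The lowest were Hk2 at 0.926, Aldoc at 1.12 and Pfkfb4 at 1.40. In KO-labelled aTreg, Ldha (265), Pkm (226) and Eno1 (207) were again the highest, and Pgk1 (142) stood above Gpi1 (106). On this scale the highest genes were mostly those of lower glycolysis in both, and genes at the low end included Hk2 in spite of its change. No per-length level is given for Aldoa, since 2 neighbouring annotated genes carry that name.

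Genes around the pathway were followed through lists. Of 16 tricarboxylic acid cycle genes, 9 were called higher for genotype and 1 lower. Idh3a (isocitrate dehydrogenase) had the largest rise, log2 0.86, and Suclg2 (a succinate CoA ligase subunit) was the one that fell, by 0.30 on the log2 scale. Of 17 tested glycogen, hexosamine and other sugar genes, 7 were higher and 1 was lower, Gbe1 (glycogen branching enzyme), at log2 −0.44. Of 17 purine and pyrimidine genes, 7 were higher and 2 lower, with Hprt (purine salvage) at 0.60 and Dhodh (pyrimidine synthesis) at −0.42. These stand beside the same background of 24.4% and 22.8%.

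The pyruvate dehydrogenase complex and its control had 1 gene higher (11.1%) and 2 lower (22.2%) of 9 tested, beside 24.4% and 22.8% of all tested genes. Pdk3 rose by log2 0.64, whereas Pdk2 fell by 0.82 on the log2 scale, so the kinases of the complex did not move together. Among 9 other isozymes of the same steps that were tested, 2 (22.2%) were higher and 3 (33.3%) lower. Bpgm (bisphosphoglycerate mutase) rose by log2 0.41, and Pfkfb2 (another maker of the phosphofructokinase activator) fell by 0.97 on the log2 scale.

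Of 23 tested regulators of glycolysis, 5 (21.7%) were called higher and 8 (34.8%) lower for genotype, beside 24.4% and 22.8% of all tested genes. Hif1a (the oxygen-sensitive transcription factor that drives glycolysis genes) measured 167 CPM for WT rTreg, 225 for WT aTreg, 323 for KO-labelled rTreg and 344 for KO-labelled aTreg, and rose by log2 0.78 (adjusted p = 8.2e-06, edgeR). Myc (a transcription factor of growth) was at 142, 174, 128 and 153 CPM and was not called for genotype (log2 difference −0.17, adjusted p = 0.051, edgeR). Txnip (which lowers glucose uptake) was at 882, 511, 581 and 384 CPM and fell by 0.51 on the log2 scale (adjusted p = 0.0001, edgeR). Its WT aTreg value lay below its KO-labelled rTreg value, so the genotypes overlapped. Epas1 (HIF-2 alpha) had the largest rise, from 3.0 and 9.62 CPM to 10.7 and 45.4 CPM, and Mxd4 (a Myc antagonist) the largest fall, 0.85 on the log2 scale. In the authors' deposited table Hif1a and Mxd4 had an adjusted p under 0.05 for genotype, and Txnip and Epas1 did not. For state, 6 regulators (26.1%) were higher and 3 (13%) lower, beside 7.91% and 5.44% of all tested genes. Epas1 rose by log2 1.93 with state, and Txnip fell by 0.69 on the log2 scale.

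Of 11 tested hypoxia-response targets outside glycolysis, 3 (27.3%) were higher and 2 (18.2%) lower for genotype, close to the 24.4% and 22.8% of all tested genes. For state 1 was higher and 1 lower. Anxa2 (a membrane-binding annexin) rose by log2 2.25, while Ddit4 (an inhibitor of mTOR) fell by 0.87 on the log2 scale. For state Bhlhe40 rose by log2 0.96 and Ndrg1 fell by 0.47 on the log2 scale.

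**Figure D5:**
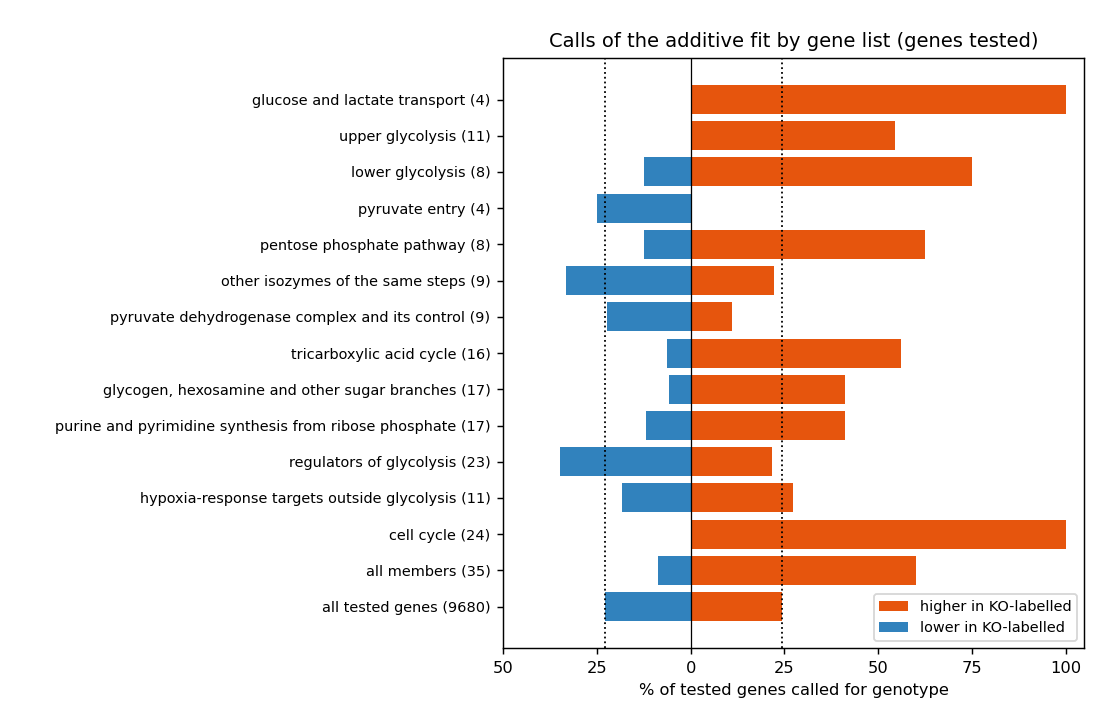
Percent of tested genes called lower (left of 0) and higher (right of 0) for genotype in each step and list, with dotted lines at the shares of all tested genes. All 4 transporters were called higher and none of the 4 pyruvate entry genes was called higher.

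Some of these genes have close copies in the genome, which could take or give reads. The percentage of 50-base windows of the longest coding transcript that also occur in another annotated gene was 82.5% for Gapdh, 72.2% for Eno1, 68.0% for Pgk1 and 41.5% for Pgam1. Pkm followed at 34.4%, Mpc1 at 29.6%, Ldhb at 27.0% and Gpi1 at 25.3%, while Tpi1 had 7.51%. The values of all of these but Tpi1 are therefore uncertain in size. Eno1b, which shares windows with Eno1, was counted on its own at 18.6, 15.1, 32.2 and 33.6 CPM in the order above. It is not part of the shares of Eno1 and Eno3. Among the 14 genes with no shared window, 7 were called higher and 3 lower for genotype, and among the 8 with 25% or more shared, 6 were higher and none lower. Exons of 15 genes overlap another annotated gene, and 11 of those were called higher. Among these 11 the overlap was largest for Pgls (20.6% of exon bases), Pkm (15.3%), G6pdx (13.6%) and Gpi1 (11.5%). For G6pdx and Gpi1 the other gene is on the opposite strand, and the limit given for Rpe holds. For Pgls and Pkm it is on the same strand, so even a known strand setting could not assign the reads of that stretch. Of the 20 without overlap, 10 were higher and 3 lower. The higher and lower counts of these groups stand beside 24.4% and 22.8% of all tested genes. G6pdx, Pgk1, Pdha1 and Prps1 are X-linked. The first 2 were called higher, and 66 of 292 tested X-linked genes (22.6%) were.

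Markers of other cell types were read in the same libraries. The summed CPM of 12 B and plasma cell genes was 363, 617, 782 and 740 in the order above, nearly all of it Ighm at 343, 579, 732 and 689 CPM, and Igkc was at 1.0, 1.51, 20.7 and 16 CPM. Of 4 tested, 3 were called higher for genotype, namely Ighm, Igkc and Ighd, where 24.4% of all tested genes were. Others on the list were present at low levels, with Cd79b at 8.77 to 14.1 CPM, Cd79a at 3.16 to 5.22, Ighd at 2.67 to 10.7 and Cd22 at 1.14 to 6.65. Jchain was at 0.143 and 0.243 CPM in WT and 1.53 and 0.853 CPM in KO-labelled libraries, and Ms4a1 and Pax5 were at 0 to 0.533 CPM. The summed CPM of 8 erythroid and platelet genes was 0.858, 1.89, 12.6 and 14.8, and that of CD8 T cell and NK cell genes was 16.6, 13, 29.2 and 35.9. Myeloid and dendritic cell genes summed to 62.4 to 71.6 CPM and stromal genes to 154 to 229 CPM, nearly all of it Pecam1. The first 3 sums were higher in KO-labelled than in WT libraries of the same state, and their part in the results above was not tested.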

How the data were processed

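Messenger RNA was sequenced in 4 libraries of mouse Treg cells, 1 per genotype and state. Extraction used TRIzol and library construction a SMARTer kit, per the labels' protocols. HISAT2 2.2.1 and featureCounts 2.0.1 on GRCm38 were used, per the submitters' processing notes, with annotation and strand setting not given in the sources used here. The deposited counts are whole read counts per gene symbol, not normalized by the authors. The deposited variance-stabilised values (close to log2, as the file headers name them) served as an alternative. The authors' log2 fold change and adjusted p-value for genotype were copied as deposited, with positive values where WT is higher.

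Testing covered the 9680 genes averaging 5 CPM or more, with 99.3% of counts. Library sizes were scaled by TMM (factors 0.995 to 1.006) in edgeR 4.0.16 (R 4.3.3), and log2 ratios used a prior count of 2. The quasi-likelihood test had additive state and genotype over the 4 libraries, with 1 residual degree of freedom, adjusted over all tested genes at 0.05. Its p-values thus reflect no more than how these libraries vary, and nothing says that the states of a genotype came from separate mice. Each SE was worked out as the absolute log2 change divided by the square root of that test's F statistic. Ratios of 2 libraries have exact binomial 95% intervals conditional on the sum, and shares have exact (Clopper-Pearson) ones. The interval of a difference between ratios is the normal approximation from the 4 counts. All of these, and the limit of 3 counts behind a count of 0, cover counting error only and no spread between mice or libraries. They treat reads as independent, which PCR copies are not, so they can be too narrow even for that error. The code was tested on simulated data. Alternatives were RLE, upper-quartile and total-count scaling, a minimum of 1 CPM or none, a prior count of 0.5, DESeq2 1.42.0, and states or genotypes as replicates.

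The genes and lists were chosen with earlier results of these data known. All 35 genes may be named, and values in every library are given for the 8 largest genotype and 6 largest state changes among called genes, called genes that go against most, the 4 largest differences between states and each isozyme compared. Of other lists, the called gene with the largest rise and fall is named. Some of these are not reported here. Gene positions, exon lengths and overlaps come from GENCODE M21, and promoters from RefSeq, both on GRCm38.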

Additional observations from a re-analysis of the deposited data

Results flagged for a closer look

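In 4 of the 35 genes (11.4%, against 3.27% of tested genes) the aTreg library lay above the rTreg library in one genotype and below it in the other, with both counting intervals off 0. This difference was not tested, since no combination of genotype and state has a second library. The difference is the log2 ratio of aTreg to rTreg in KO-labelled libraries minus that in WT libraries. For Pfkfb4, which makes the activator of phosphofructokinase, it was −0.99, from 0.46 in WT to −0.53 in KO-labelled libraries. For Rpe, the ribulose phosphate epimerase, it was −0.63, from 0.20 to −0.43. For Ldha it was 0.19, from −0.08 to 0.11, and for Eno1 it was 0.17, from −0.10 to 0.07. The last 2 are small changes of abundant genes, whose counting intervals are narrow and hold no spread between mice.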

How the results depend on the processing

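Higher for genotype were 21 genes, and 20 to 22 under other scalings, filters and DESeq2, but 12 with states as replicates. Lower were 3, but 5 with upper-quartile scaling (Pdha1 and Mpc2 added), 1 in DESeq2 and 1 with states as replicates. Higher for state were 7, but 1 in DESeq2 and 0 with genotypes as replicates. Lower for state was 1, but 0 in both. In that last edgeR fit 0 of 9680 genes were called, 328 had an unadjusted p under 0.05 (0 of the 35), and DESeq2 with both terms called 289 higher and 134 lower. For genotype over all genes, 2363 were higher and 2210 lower, against 1370 and 1157 in DESeq2 and 929 and 697 with states as replicates. The cause of these changes was not tested.

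Pfkfb3 for genotype turned sign from a log2 change of 0.000261 to −0.00487 (RLE), −0.0463 (upper-quartile), −0.00491 (total counts), −0.00407 (1 CPM) and −0.00483 (DESeq2). Pfkfb4 for state went from 0.00193 to −0.00482, −0.0110, −0.00837, −0.00541 and, in DESeq2, −0.0320, and to −0.00686 without a filter. Eno1 for state went to 0.014 with genotypes as replicates. None of these was called. The median ratios moved by less than the counting error of a typical single gene in each alternative, a wide margin for a median over many genes. Of 140 ratios of single genes, 25 moved beyond their own counting error with the deposited variance-stabilised values, each closer to 0 with the same sign. With upper-quartile scaling 8 did. No paired analysis was possible because each group holds 1 library with no replicate number. Leaving out a library was not run, since 3 libraries leave the additive fit no residual degree of freedom. Depth limits Hk2, Pfkfb4, Aldoc and Mpc1, at 3.67 to 19.8 CPM.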
